A study of Mus musculus with 12 samples.

Results

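The AP-1 and EGR immediate-early genes Fos, Fosb, Fosl2, Jun, Junb, Jund, Egr1, Egr2, Atf3 and Ier3 were followed in cumulus cells of ClpP knockout and wild-type mice. They were chosen by name, with earlier results of these data known, and are 10 of the 23997 genes in the expression table. All 10 were at 1 FPKM or more (fragments scaled to transcript length and library size) in all 12 libraries. Cumulus cells are the granulosa-derived cells that surround the oocyte, and CLPP is a protease of the mitochondrial matrix. Each of the 12 libraries came from 100 cumulus cells of 1 female C57BL/6J mouse, and each group held 3 libraries: wild type (WT) at 3 months, ClpP-/- (KO) at 3 months, WT at 6 months and KO at 6 months. All 4 groups had been given 5 IU of PMSG (pregnant mare serum gonadotropin, which drives follicle growth), and no later injection is described. Collection was at 44 h in the treatment protocol and at 48 h in the series text. The sources used here do not say how the ClpP allele was made.

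Immediate-early genes are transcribed within minutes of a stimulus without new protein synthesis, through factors that already sit on their promoters, and their mRNAs are short-lived. FOS and JUN family proteins pair through leucine zippers into the AP-1 dimer: FOS proteins cannot pair with one another, whereas JUN proteins can. EGR proteins are zinc finger factors that bind GC-rich sites, ATF3 is a stress-induced relative of the AP-1 proteins, and IER3 is a small protein linked to cell survival. In the ovary, gonadotropins acting through cyclic AMP and ERK signalling induce Fos, Jun and Egr1 in granulosa cells, while FOSL2 and JUND are associated with luteinising cells. Tissue dissociation is also known to induce many of them.

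Promoter sequence was read for the members on which the comparisons turn. RefSeq promoters (GRCm38.p6) were matched for 9 of the 10 genes, all but Egr1, and searched in the 250 bases before each start, on both strands except for the TATA box letters, which were read on the gene's strand. The letters TGACG, the core of the cyclic AMP response element through which CREB and ATF1 act, occurred in 5 of the 9 (Fos, Fosb, Junb, Egr2 and Atf3) and in 17.8% of 32851 promoters. Here and below a member counted if any of its promoters held the letters, and Egr2 has several. The shares are over single promoters, so the 2 are not on the same footing. The 150 bases shown for each of 5 genes lie outside annotated exons and are written 5′ to 3′ on the gene's strand, with TGACG and the TATA box letters TATAAA in capitals. Fos is at chr12:85473740-85473889 (plus strand), Fosb at chr7:19310052-19310201 (minus strand), Junb at chr8:84978749-84978898 (minus strand), Jun at chr4:95052223-95052372 (minus strand) and Ier3 at chr17:35821534-35821683 (plus strand). In GENCODE M21 on the same build, Fosl2 lies at chr5:32135801-32157842, Jund at chr8:70698949-70700616, Egr2 at chr10:67535475-67542188 and Atf3 at chr1:191170296-191218039. Of the windows, the first 3 hold the TGACG letters, and Jun and Ier3 are shown because their levels separated WT from KO libraries at 3 months.
Fos: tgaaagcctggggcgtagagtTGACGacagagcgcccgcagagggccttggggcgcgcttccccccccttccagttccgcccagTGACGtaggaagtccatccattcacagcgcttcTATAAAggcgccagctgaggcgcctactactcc
Fosb: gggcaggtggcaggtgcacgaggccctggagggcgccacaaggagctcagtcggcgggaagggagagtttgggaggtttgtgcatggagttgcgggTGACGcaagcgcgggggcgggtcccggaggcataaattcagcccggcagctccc
Junb: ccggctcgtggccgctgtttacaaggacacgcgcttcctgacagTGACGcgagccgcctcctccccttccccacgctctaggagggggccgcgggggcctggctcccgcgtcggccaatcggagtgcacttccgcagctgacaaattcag
Jun: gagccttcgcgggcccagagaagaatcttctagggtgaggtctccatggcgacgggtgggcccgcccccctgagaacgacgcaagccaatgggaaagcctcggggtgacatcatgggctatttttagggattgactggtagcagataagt
Ier3: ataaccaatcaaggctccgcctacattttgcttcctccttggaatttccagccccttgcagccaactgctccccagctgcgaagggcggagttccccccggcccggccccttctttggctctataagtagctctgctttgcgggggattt
In the Fos window TGACG occurred at 129 and 66 bases before the start, and TATAAA began 33 bases before it, letters found in 7.59% of all promoters and in no other member. Fosb held TGACG 60 bases before its start and Junb 106 bases before its own. The windows of Jun and Ier3 held neither set of letters. The consensus AP-1 site TGACTCA occurred in none of the 9 members (4.46% of all promoters), nor did the full element TGACGTCA (1.55%), which contains TGACG on both strands. The EGR site GCGGGGGCG occurred in Fosb and Fosl2 (2.57% of all promoters) and a serum response CArG box in Egr2 (1.47%). These are exact matches of letters in a window and were not tested for binding. Near matches were not counted, such as tgacatca in the Jun window, a single base from TGACGTCA.

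Clpp itself ran from 88.2 to 146 FPKM in the 6 WT libraries and from 0.769 to 6.63 FPKM in the 6 KO libraries, so every library matched its label. Inha and Fshr, markers of granulosa cells, were present in all 12 libraries, at 2419 to 6334 and 30.7 to 211 FPKM. Markers of other cells stood out in a few libraries. Of the 12 theca and stromal markers, summed levels were 1331 FPKM in KO 3-month library 3 and 1688 FPKM in KO 6-month library 3, against 0.568 to 164 FPKM in the other 10 libraries. Cyp17a1, the theca androgen enzyme, made up 932 and 1062 FPKM of those sums. The 12 blood and leukocyte markers summed to 844 FPKM in KO 3-month library 3, 1306 FPKM in KO 6-month library 3, 1632 FPKM in WT 6-month library 3 and 756 FPKM in WT 3-month library 3, and to at most 75.5 FPKM elsewhere. The oocyte markers summed to 60.0 and 251 FPKM in the same KO libraries 3 and to at most 16.8 FPKM elsewhere. Endothelial and surface epithelium markers reached at most 55.4 and 249 FPKM in any library. The 12 granulosa and cumulus markers summed to 3005 and 4068 FPKM in those KO libraries 3 and to 4632 FPKM or more in the rest. Small RNA entries took 25.7% of the FPKM sum in WT 3-month library 1, 31.96% in KO 3-month library 3 and 37.5% in KO 6-month library 3, and at most 6.82% in the rest. Fewer cells of a type and less RNA per cell cannot be told apart in such pools.

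None of the 10 genes passed an adjusted p of 0.05 in any of 6 comparisons (limma on log2(FPKM + 1), Benjamini-Hochberg over 11196 genes). In WT, 4 of the 10 had an unadjusted p under 0.05 between 3 and 6 months (7.44% of all genes), and 3 of the 10 did between KO and WT at 3 months (6.80% of all genes). Of the members' differences, 8 of 10 were above 0 in KO minus WT at 3 months (median 0.52 on the log2 scale; 51.2% of all genes were above 0) and 7 of 10 were below 0 at 6 months (median -0.65; 48.5% of all genes). Junb and Jund were above 0 and Ier3 below 0 at both ages, and no member's change in the genotype difference between ages was called (limma adjusted p = 1). The corresponding medians of all genes tested were 0.01 and 0.01. WT at 3 months was the group of lowest mean for 6 members (Fos, Fosb, Fosl2, Jun, Junb and Egr1), and it takes part in both the 3-month comparison and the comparison of ages in WT.

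By median level over the 12 libraries, in FPKM and so per length, the order of the members was Fos (639), Egr1 (130.0), Jun (86.9), Junb (83.0), Ier3 (67.7), Jund (67.2), Fosb (59.9), Atf3 (28.1), Fosl2 (7.86) and Egr2 (6.02). The ranges of neighbours in that order overlapped throughout. When KO 3-month, WT 6-month and KO 6-month libraries 3, the highest in markers of other cells, were left out, KO minus WT at 3 months was 3.13 for Fos, 2.09 for Jun and -2.78 for Ier3 on the log2 scale (limma adjusted p = 0.259, 0.224 and 0.232). Each was at least as far from 0 as with all libraries. Of the 3-month libraries only KO library 3 was left out. WT 3-month library 3, with 756 FPKM of summed blood and leukocyte markers, stayed in. At 6 months Egr2 was then at -0.74 and Ier3 at -1.40 (limma adjusted p = 1).

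**Figure D1:**
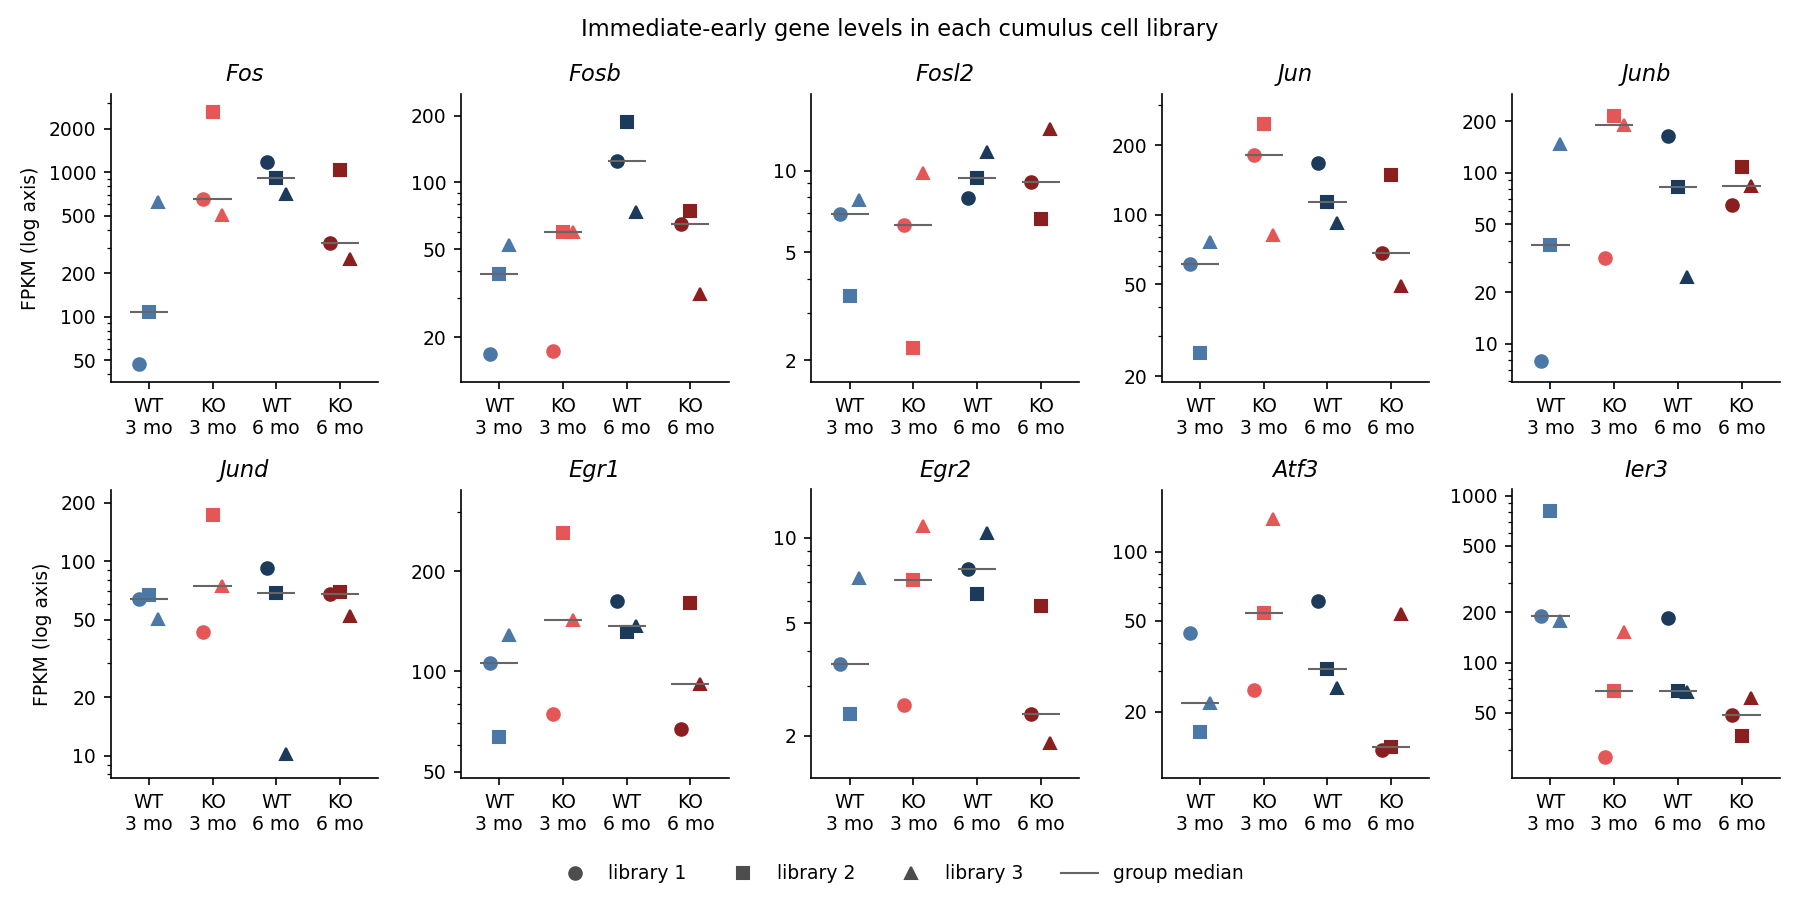
FPKM of each of the 10 genes (vertical log axes, each with its own range) in every library, grouped by genotype and age; symbols mark the library number and lines the group medians. Fos spans 47.1 to 2598 FPKM, and its 2 lowest points are WT 3-month libraries 1 and 2.

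The FOS family supplies the partner of AP-1 that cannot act alone. Fos was the most abundant member, and in its highest library, KO 3-month library 2, it stood at the 99.8th percentile of the genes tested. Its levels were 47.1, 108 and 628 FPKM in WT at 3 months and 650.2, 2598 and 508 FPKM in KO at 3 months. At 6 months they were 1182, 914 and 709 FPKM in WT and 324, 1040.4 and 251 FPKM in KO. WT library 3 at 3 months lay within the KO range, whereas WT libraries 1 and 2 lay far below every other library. At 6 months the KO libraries 1 and 3 lay below all WT libraries, and library 2 lay among them. The log2 difference of KO minus WT was 2.68 ± 0.872 (SE) at 3 months (unadjusted p = 0.00977, limma adjusted p = 0.664), with a 95% interval of 0.78 to 4.58. At 6 months it was -1.06 (95% interval -2.96 to 0.84, limma adjusted p = 1), and -1.68 without KO library 2 or -0.66 without KO library 3 of that age. The change in the genotype difference between ages was -3.73 ± 1.23 (SE; unadjusted p = 0.0106, limma adjusted p = 1).

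Within groups, Fos varied more than most genes. The residual SD of Fos was 1.28 on the log2 scale, against a median of 0.50 over all genes tested and of 0.36 over 190 genes of like level. Within WT at 3 months the highest library was 13.3 times the lowest, and within WT at 6 months 1.67 times. From 3 to 6 months in WT the 3 older libraries all lay above the 3 younger ones, by 2.62 on the log2 scale (unadjusted p = 0.011, limma adjusted p = 0.664). In KO the same age difference was -1.11 (95% interval -3.01 to 0.79, limma adjusted p = 0.792), and the groups overlapped. It was -0.39 without KO 3-month library 2 and -1.73 without KO 6-month library 2. The 12 granulosa and cumulus markers moved with Fos in part: as a mean of log2 values centred on each gene, they stood at -0.35 and -0.71 in WT 3-month libraries 1 and 2, the libraries of lowest Fos. They stood at -1.07 in KO 3-month library 3 and -0.43 in KO 6-month library 3, and at -0.14 to 0.54 in the other 8. By summed level the same markers were not low in WT 3-month libraries 1 and 2, at 5629 and 6046 FPKM. Over the 12 libraries the centred mean of these markers had r = 0.63 with Fos and 0.72 with Jun, and -0.49 to 0.38 with the other members. The part of these markers in the differences of Fos and Jun was not tested.

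Fosb encodes a second FOS protein, also made as a truncated splice form. Its levels were 16.8, 38.6 and 52.2 FPKM in WT and 17.3, 59.8 and 60.0 FPKM in KO at 3 months. They were 125, 187 and 73.6 FPKM in WT and 65.0, 74.3 and 31.5 FPKM in KO at 6 months. The genotypes overlapped at 3 months, and at 6 months KO library 2 lay just above WT library 3. All 3 WT libraries at 6 months exceeded all 3 WT libraries at 3 months, a log2 difference of 1.85 ± 0.567 (SE; unadjusted p = 0.00685, limma adjusted p = 0.664). KO minus WT at 6 months was -1.15 (95% interval -2.38 to 0.09, limma adjusted p = 1).

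Fosl2 (Fra-2) was low throughout, at 6.91, 3.44 and 7.80 FPKM in WT and 6.30, 2.22 and 9.80 FPKM in KO at 3 months. At 6 months it was at 7.91, 9.36 and 11.7 FPKM in WT and 9.09, 6.66 and 14.2 FPKM in KO. KO and WT overlapped at both ages, with log2 differences of -0.09 (95% interval -1.10 to 0.91, limma adjusted p = 0.983) and 0.00 (95% interval -1 to 1, limma adjusted p = 1). The 3 libraries of highest Fosl2 (14.2, 11.7 and 9.80 FPKM) were KO 6-month library 3, WT 6-month library 3 and KO 3-month library 3, the same 3 that were highest in blood and leukocyte markers. The part of other cells in these values was not tested. In WT, every 6-month library was above every 3-month library, by 0.64 on the log2 scale (95% interval -0.36 to 1.64, limma adjusted p = 0.768).

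Fos dominated the summed level of the 3 FOS family members, on the FPKM scale, in every library. The fourth FOS family gene, Fosl1, was not in the sum. It was at 1.76, 3.83 and 0 FPKM in WT and at 0 FPKM in every KO library at 3 months, and at most 0.178 FPKM at 6 months. Fos made up 66.5%, 72.0% and 91.3% of the summed FPKM of Fos, Fosb and Fosl2 in the WT libraries at 3 months and 96.5%, 97.7% and 87.9% in the KO libraries. At 6 months it made up 89.9%, 82.4% and 89.3% in WT and 81.4%, 92.8% and 84.6% in KO. WT 3-month libraries 1 and 2 had the lowest Fos shares, with Fosb at 23.7% and 25.7%. The genotype difference in the Fos share at 3 months, 17.4 percentage points, gave p = 0.2 in an exact 2-sided permutation test, in which 3 against 3 libraries cannot go below 0.1.

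**Figure D2:**
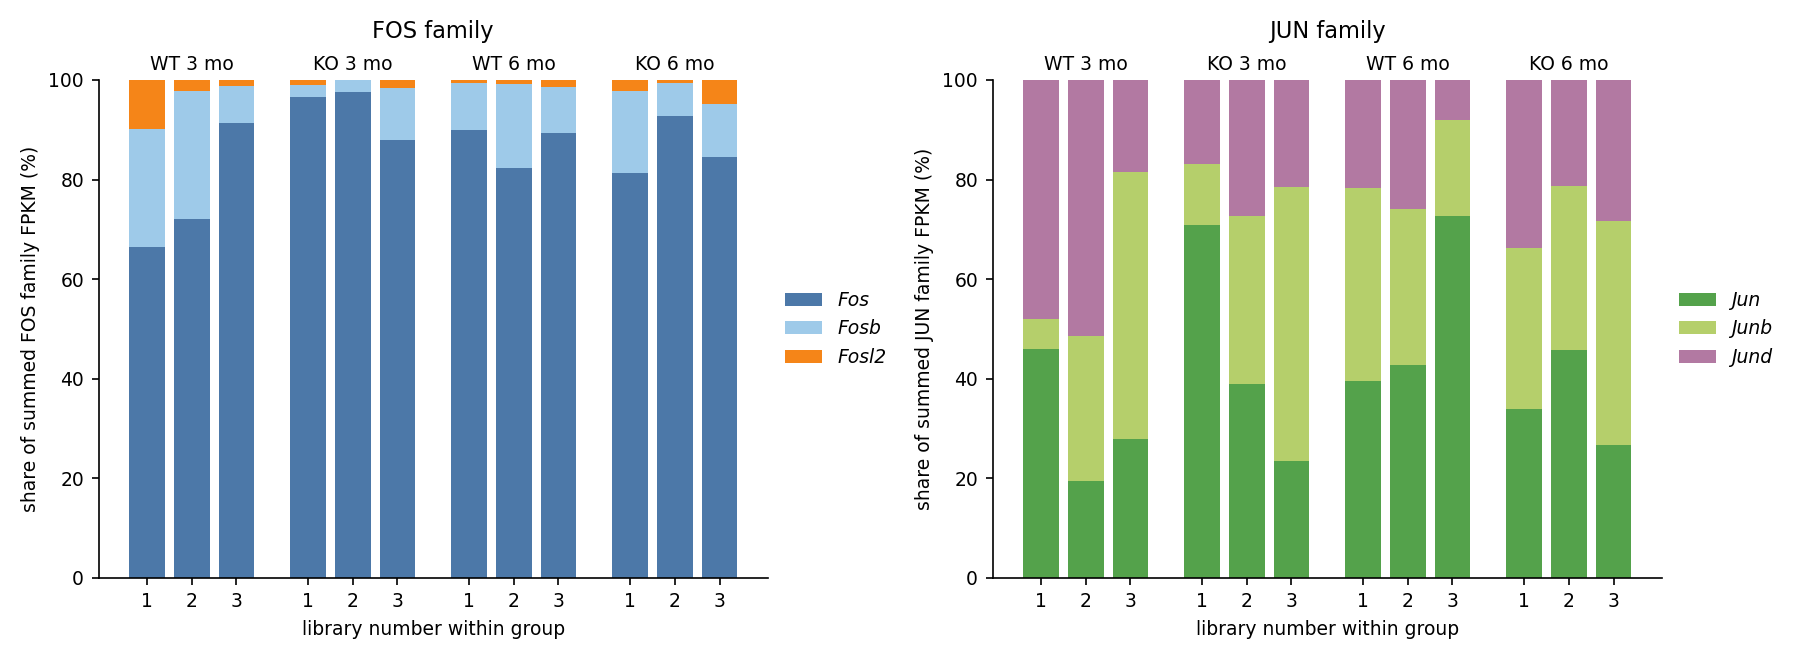
Share (%) of each gene in the summed FPKM of the FOS family (left) and of the JUN family (right), 1 bar per library. Fos holds 66.5% to 97.7% of the sum of Fos, Fosb and Fosl2 in every library (Fosl1 is not in the sum), whereas Jun, Junb and Jund each lead the JUN family in some libraries.

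The JUN family supplies the other partner, with JUN the strong activator, JUNB a weaker one that can oppose it, and JUND the form that many resting cells hold. Jun was at 61.1, 25.1 and 76.2 FPKM in WT and at 182, 249 and 81.4 FPKM in KO at 3 months. At 6 months it was at 168, 114 and 92.4 FPKM in WT and at 68.1, 149 and 49.4 FPKM in KO. Every KO library at 3 months exceeded every WT library of that age, though KO library 3 did so by only 81.4 against 76.2 FPKM. Jun was the single member higher in KO without overlap at 3 months, a pattern held by 5.02% of all genes tested. The log2 difference was 1.64 ± 0.53 (SE; unadjusted p = 0.00952, limma adjusted p = 0.664), with a 95% interval of 0.48 to 2.79. At 6 months the genotypes overlapped, with a difference of -0.60 (95% interval -1.75 to 0.56, limma adjusted p = 1). The change between ages was -2.23 ± 0.75 (SE; unadjusted p = 0.0116, limma adjusted p = 1). In WT, Jun was higher in all 6-month than in all 3-month libraries, by 1.28 on the log2 scale (unadjusted p = 0.0324, limma adjusted p = 0.664). The difference was 0.82 without WT 3-month library 2. That library was low in granulosa markers as a mean of centred log2 values (-0.71) but not by their sum (6046 FPKM).

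Junb was the most variable member within groups, with a residual SD of 1.45 on the log2 scale. It was at 7.92, 37.8 and 147 FPKM in WT and at 31.6, 215 and 191 FPKM in KO at 3 months. It was at 164, 82.8 and 24.5 FPKM in WT and at 64.6, 108 and 83.2 FPKM in KO at 6 months. The highest WT library at 3 months was 18.5 times the lowest, and the genotypes overlapped at both ages. KO minus WT was 1.58 on the log2 scale at 3 months, but the 95% interval ran from -0.58 to 3.74 (limma adjusted p = 0.789). It was 0.55 without WT 3-month library 1, 2.57 without WT 3-month library 3 and 2.46 without KO 3-month library 1. Junb overlaps the opposite-strand gene Prdx2 by 173 of its 2301 exon bases, and since the libraries do not mark strand, reads from the shared bases cannot be told apart.

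Jund was the steadiest member in WT at 3 months, at 64.0, 66.8 and 50.7 FPKM, and in KO at 6 months, at 67.6, 69.3 and 52.4 FPKM. The other groups were wider, with 43.4, 174 and 75.1 FPKM in KO at 3 months and 92.4, 69.1 and 10.2 FPKM in WT at 6 months. The low value of 10.2 FPKM was in WT 6-month library 3, which also had the highest summed blood and leukocyte markers and the lowest relative depth of the 12 libraries, 0.64 of the deepest. Whether these bear on the Jund value was not tested. Without that library, with the KO 3-month and KO 6-month libraries 3 also left out, KO minus WT at 6 months was -0.22 on the log2 scale, against 0.60 with all libraries. An antisense gene, Gm11175, shares 877 of the 1668 exon bases of Jund, and another, Junos, shares 232 of the 3189 exon bases of Jun, so those reads too carry no strand.

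No 1 gene led the JUN family. Jun made up 19.4% to 72.7% of the summed JUN family FPKM over the 12 libraries, Junb 5.95% to 55.0% and Jund 8.04% to 51.5%. Jund held the largest share in WT 3-month libraries 1 and 2, the libraries of lowest Fos, at 48.1% and 51.5%. Over 24 comparisons of FOS and JUN family shares between groups, the smallest p was 0.2 (exact 2-sided permutation tests, not adjusted).

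EGR1 is needed for luteinising hormone production in the pituitary and is itself induced by gonadotropins in granulosa cells. Egr1 mRNA had a residual SD of 0.61 on the log2 scale, below those of Fos, Jun, Junb and Jund. It was at 106, 63.8 and 128 FPKM in WT and 74.6, 260.4 and 142 FPKM in KO at 3 months, and at 163, 132 and 137 FPKM in WT and 67.4, 161 and 91.7 FPKM in KO at 6 months. The genotypes overlapped at both ages, with KO minus WT of 0.55 (95% interval -0.42 to 1.53, limma adjusted p = 0.827) and -0.52 (95% interval -1.49 to 0.46, limma adjusted p = 1) on the log2 scale. The 3 WT libraries at 6 months were within 1.23 times of each other and all exceeded the WT libraries at 3 months, by 0.58 on the log2 scale (95% interval -0.40 to 1.55, limma adjusted p = 0.79).

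Egr2, known best for its part in myelination and in lymphocyte tolerance, was the least abundant member, with a median of 6.02 FPKM. It was at 3.59, 2.38 and 7.23 FPKM in WT and 2.57, 7.12 and 10.96 FPKM in KO at 3 months. At 6 months it was at 7.74, 6.31 and 10.4 FPKM in WT and 2.38, 5.74 and 1.89 FPKM in KO. At 6 months each KO library lay below each WT library, the nearest pair being 5.74 and 6.31 FPKM. The log2 difference there was -1.16 ± 0.504 (SE; unadjusted p = 0.0409, limma adjusted p = 1), and the change from 3 to 6 months in the genotype difference was -1.64 (unadjusted p = 0.0407, limma adjusted p = 1). Egr2 and Ier3 were the 2 of 10 members lower in KO without overlap at 6 months, against 3.01% of all genes tested.

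ATF3 is induced by stress kinases and by the integrated stress response, and it represses many of its targets. Atf3 was at 44.0, 16.3 and 21.8 FPKM in WT and 24.9, 53.9 and 138 FPKM in KO at 3 months. It was at 60.7, 30.9 and 25.4 FPKM in WT and 13.7, 14.1 and 53.3 FPKM in KO at 6 months. The genotypes overlapped at both ages. Its highest value of all, and the highest within KO at 6 months, came from the libraries 3 that carried 1331 and 1688 FPKM of theca and stromal markers. Their part in the result was not tested directly. KO minus WT at 3 months was 1.16 on the log2 scale with all libraries (95% interval -0.28 to 2.61, limma adjusted p = 0.773) and 0.53 when the same libraries and WT 6-month library 3 were left out. It was 1.75 without KO 3-month library 1 alone. At 6 months the same 2 values were -0.70 and -1.57 (limma adjusted p = 1 for both). Between 3 and 6 months in KO, Atf3 differed by -1.35 (95% interval -2.79 to 0.10, limma adjusted p = 0.745), and by -0.72 without KO 3-month library 3.

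Ier3 encodes a short-lived protein that modulates ERK and NF-kB signalling and apoptosis. It was the single member whose KO libraries all lay below all WT libraries at both ages, a pattern held by 20 of the 11196 genes tested (0.179%). At 3 months alone 5.22% of all genes did so. At 3 months it was at 190.0, 808 and 176 FPKM in WT and at 27.0, 67.4 and 153 FPKM in KO. At 6 months it was at 186, 67.9 and 66.8 FPKM in WT and at 48.4, 36.3 and 61.0 FPKM in KO. The nearest libraries were close at both ages, 176 against 153 FPKM and 66.8 against 61.0 FPKM. The log2 difference was -2.18 ± 0.683 (SE) at 3 months (95% interval -3.67 to -0.69, unadjusted p = 0.00784, limma adjusted p = 0.664) and -0.98 (95% interval -2.47 to 0.51, limma adjusted p = 1) at 6 months. The change between ages was 1.204 (95% interval -0.90 to 3.31, limma adjusted p = 1), so a difference between the ages was not shown. That change was 0.49 without WT 3-month library 2 and 0.58 without KO 3-month library 1, and KO minus WT at 6 months was -0.49 without WT 6-month library 1.

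Over both ages, Ier3 differed by -1.58 ± 0.483 (SE) on the log2 scale between KO and WT (limma unadjusted p = 0.00682, adjusted p = 0.783). An exact 2-sided permutation test with labels permuted within each age gave p = 0.005, the smallest its 400 arrangements can give. It was not adjusted for the number of members tested. With all libraries in, any gene lower in KO without overlap at both ages gets this value. The p therefore restates the separation already described and is not further evidence for it. The other 9 members gave exact permutation p-values of 0.315 to 0.985 in the same test. The difference rested in part on WT 3-month library 2, with 808 FPKM. Without that library it was -1.22, with an exact permutation p of 0.035, and KO still lay below WT at both ages without overlap. Ier3 was chosen with its 3-month levels in these libraries known, so the low p is not independent of the choice. In WT, where Fos, Fosb and Jun were above 0 in 6 minus 3 months, Ier3 was at -1.66 (unadjusted p = 0.032, limma adjusted p = 0.664), and the age groups overlapped. It was -0.95 without WT 3-month library 2.

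**Figure D3:**
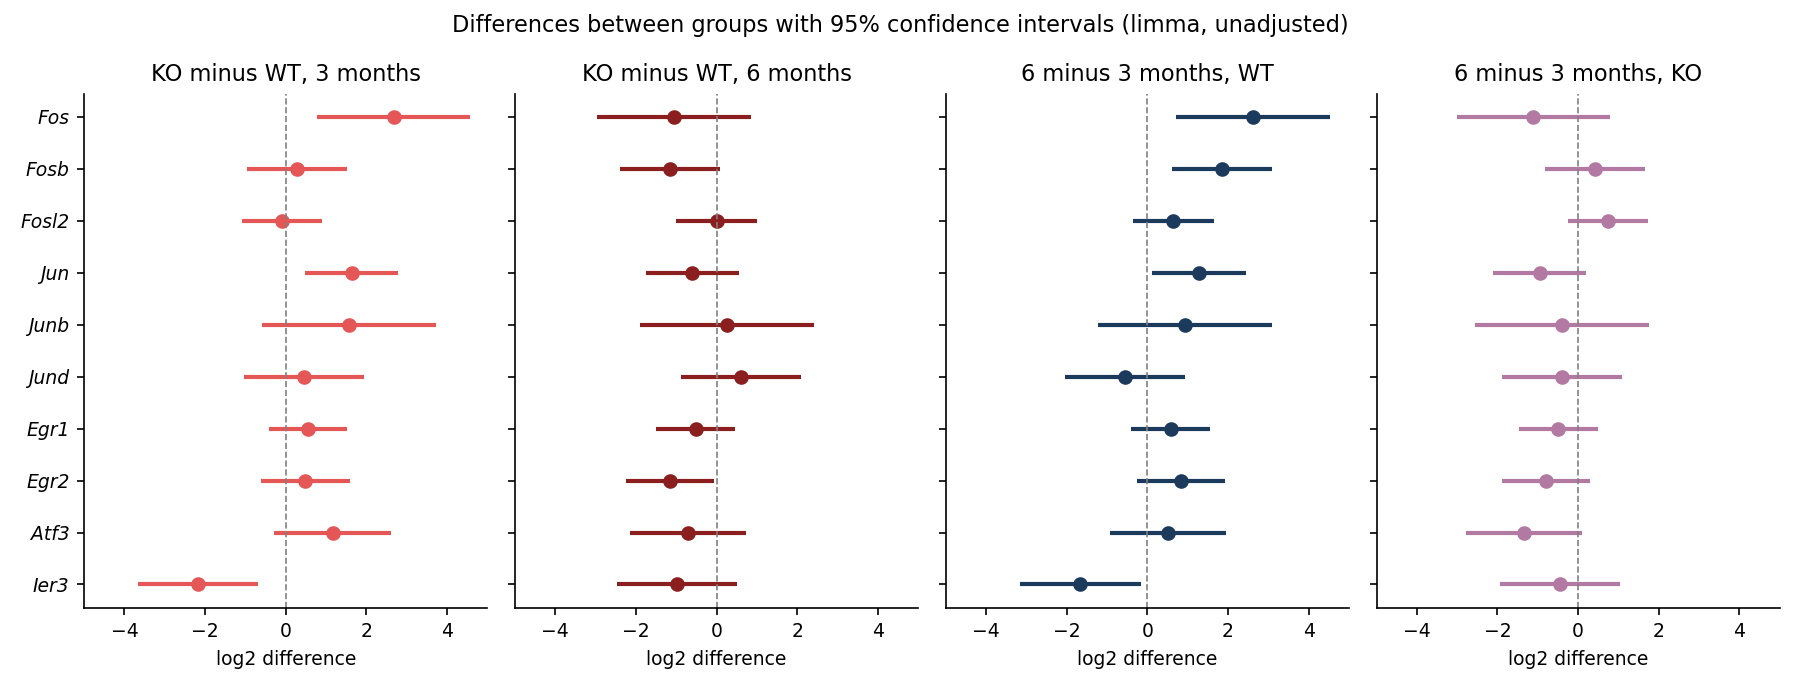
Log2 differences (horizontal axes, log2(FPKM + 1) scale) of the 10 genes in 4 comparisons, as points with 95% confidence intervals from limma, not adjusted for the number of genes. Fos and Jun lie above 0 and Ier3 below 0 in KO minus WT at 3 months, and most intervals at 6 months and in KO between ages include 0.

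Counted over the 10 members, KO minus WT at 3 months had 0 members called, against 0.00893% of all genes. At an unadjusted p under 0.05 there were 3 (Fos and Jun above 0, Ier3 below), against 6.80% of all genes. At 6 months 0 were called (0.0268% of all genes) and 1, Egr2, had an unadjusted p under 0.05 (1.22%). The difference between the ages in the genotype effect had 0 called (0.00893%) and 3, Fos, Jun and Egr2, with an unadjusted p under 0.05, all below 0 (2.00%). Its median over the members was -1.38 on the log2 scale, against 0.01 over all genes. The members' counts were not tested as a group, and the members were chosen with earlier results of these data known. Their counts here and below are therefore not independent of that choice.

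The comparison of ages in WT had 0 members called (0.00893% of all genes) and 4 with an unadjusted p under 0.05 (7.44%): Fos, Fosb and Jun above 0 and Ier3 below. In 5 of the 10 (Fos, Fosb, Fosl2, Jun and Egr1) every 6-month library exceeded every 3-month library, against 7.94% of all genes. With 3 libraries against 3, an exact permutation test of a single gene cannot go below 0.1, the value each of the 5 gave. In KO between ages 0 members were called (0.0179%), 0 had an unadjusted p under 0.05 (6.48%) and all 10 overlapped (12.8% of all genes did not). Libraries of the same number were also set side by side, though neither the labels nor the data show that they are pairs. In each of the 3 same-numbered KO sets Fos, Jun, Egr1, Egr2 and Atf3 were lower at 6 than at 3 months (17.4% of all genes were), and Fosl2 was higher (17.8%). With library number as a block, the limma adjusted p was 0.662 for Fos and 0.522 for Atf3, and 0 members were called. In the same-numbered pairs at 6 months Fosb, Egr2 and Ier3 were lower in KO in every pair (10.4% of all genes) and no member was higher in every pair (13.7%). The members' median was 0.74 in WT and -0.47 in KO on the log2 scale, against 0.03 and 0.01 over all genes. The 3-month and WT age comparisons share the WT 3-month libraries, so their resemblance is not a separate result. Averaged over ages, KO minus WT had 0 members called (0.0179%) and 1, Ier3, with an unadjusted p under 0.05 (5.96%), with a median of 0.12.

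**Figure D4:**
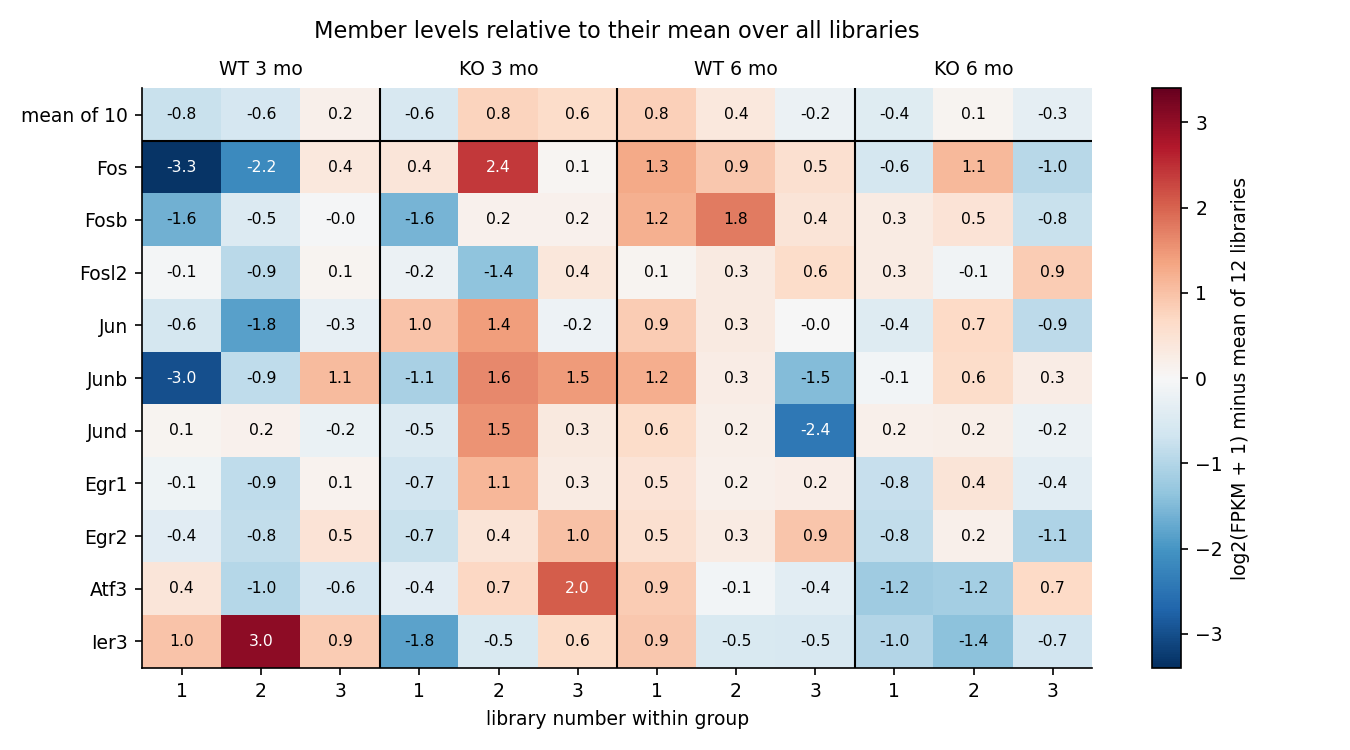
Level of each gene in each library as log2(FPKM + 1) minus the gene's mean over the 12 libraries (colour and printed value), with the mean of the 10 genes in the top row. The mean of the 10 ranges from -0.77 in WT 3-month library 1 to 0.81 in WT 6-month library 1. In WT 3-month libraries 1 and 2 Ier3 is above its mean and Fos below, whereas in KO 6-month libraries 1 and 3 both are below.

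All 45 pairs of members were compared across the 12 libraries. Fos and Jun had Pearson r = 0.82 (permutation p = 0.00099, adjusted over 45 pairs p = 0.0445) and Spearman rho = 0.902 (permutation p = 0.00015, adjusted p = 0.00675). Without WT 3-month libraries 1 and 2, the libraries farthest from the median of Fos, r was 0.891. As deviations from the group means, r was 0.655. With all libraries it was the single pair of 45 with an adjusted p under 0.05, and 7 pairs had an unadjusted p under 0.05. Egr1 and Egr2 also passed after rescaling to a common sum. Fos with Junb and Egr1 with Egr2 passed without WT 6-month library 3, and likewise when that library and both KO libraries 3 were left out. Jun with Egr1 passed without KO 3-month library 1, and Fos with Egr1 and Junb with Jund passed without WT 3-month library 1. The Pearson adjusted p was above 0.05 in 9 of the 12 analyses that left out 1 library, where r ran from 0.764 to 0.94.

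Egr1 and Egr2 came next, with r = 0.781 (permutation p = 0.00286, adjusted p = 0.0643), rho = 0.741 (permutation p = 0.00793, adjusted p = 0.106) and r = 0.84 without WT 3-month library 2 and KO 3-month library 2. Fos and Junb had r = 0.723 (permutation p = 0.00876, adjusted p = 0.131) and rho = 0.538 (permutation p = 0.0752, adjusted p = 0.308), and r was 0.367 without WT 3-month libraries 1 and 2, so that relation rested on those libraries. Of the 45 pairs, 33 had r above 0. The lowest r was that of Jun with Ier3, -0.622 (permutation p = 0.0305, adjusted p = 0.222; rho = -0.399, permutation p = 0.2, adjusted p = 0.412), and it was -0.316 without the 2 libraries farthest from the median of Jun. Ier3 had r below 0 with 6 of the other 9 members.

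**Figure D5:**
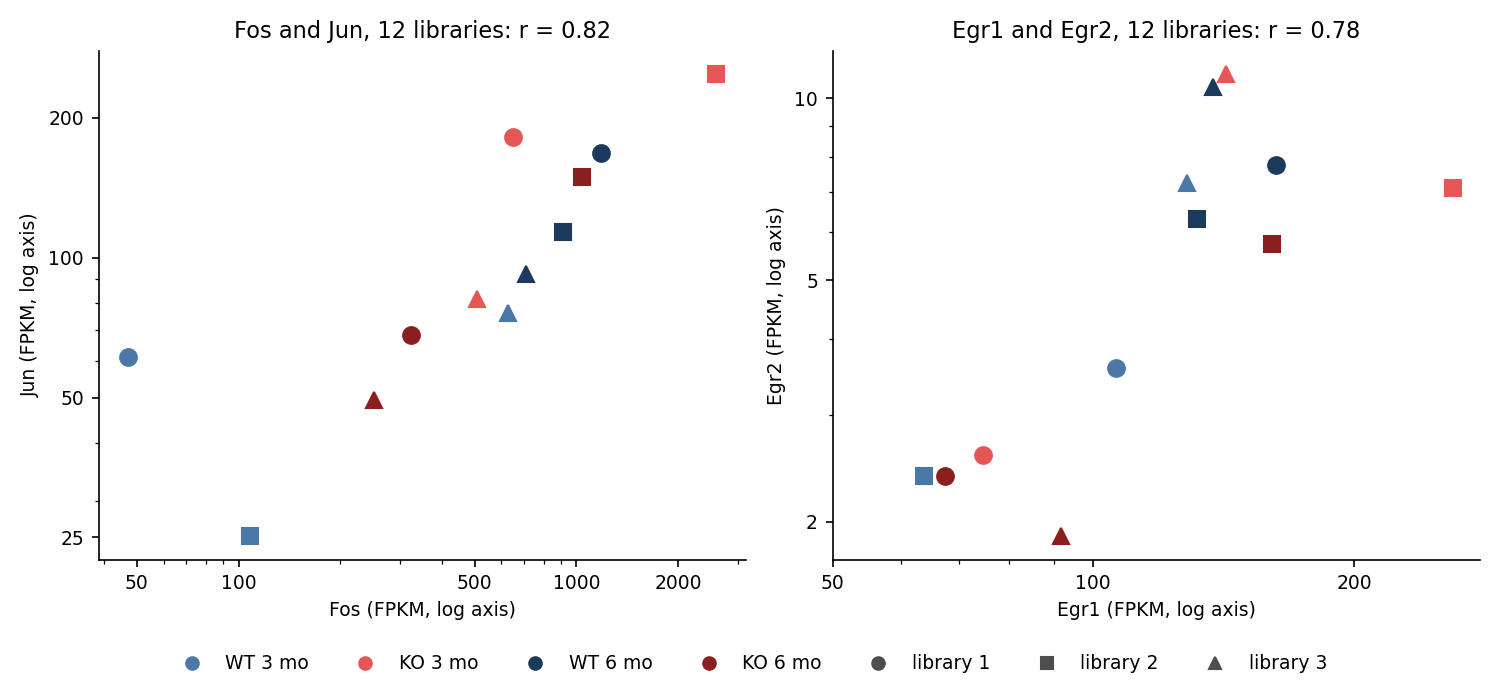
Fos against Jun (left) and Egr1 against Egr2 (right), FPKM on log axes, 1 point per library coloured by group and shaped by library number. Fos and Jun vary together over the 12 libraries (r = 0.82 on the log2(FPKM + 1) scale), and KO 3-month library 2 is highest in both.

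The genes whose pattern over the 12 libraries was most like the mean of the 10 members were looked for among the other genes tested. Predicted, clone-named and small RNA genes were passed over. Zfp36 came first, with r = 0.891. It encodes tristetraprolin, itself an immediate-early product, which binds AU-rich elements and speeds the decay of short-lived mRNAs. Zfp36 was at 18.1, 33.8 and 155 FPKM in WT and 59.1, 254 and 122 FPKM in KO at 3 months, and at 170.4, 61.2 and 60.1 FPKM in WT and 34.1, 101 and 43.4 FPKM in KO at 6 months. As in Fos, WT 3-month libraries 1 and 2 were low and KO 3-month library 2 was the highest. Enpp1 (r = 0.862), Rassf1 (0.856), Inpp5b (0.853) and Socs3 (0.847), the last encoding a feedback inhibitor of cytokine receptors, followed. For Fos alone the 5 nearest were Nme6 (r = 0.948), Stard7 (0.866), Zfp36 (0.863), Dcbld1 (0.862) and Id3 (0.859). These are the highest of many correlations and are given as a description.

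The genes that act around the members were read from 5 lists. Among upstream kinases and factors (SRF and its partners, CREB and ATF1, and the MAP kinases), 21 of 22 genes were tested, 0 were called in any comparison, and the median KO minus WT was -0.14 at 3 months and 0.02 at 6 months on the log2 scale. Atf1, which binds the cyclic AMP response element, was at 36.2, 28.8 and 23.4 FPKM in WT and 16.2, 20.9 and 16.9 FPKM in KO at 3 months. KO lay below WT there without overlap (5.22% of all genes did), by -0.67 on the log2 scale (unadjusted p = 0.0206, limma adjusted p = 0.69). At 6 months Atf1 was at 22.3, 26.3 and 27.8 FPKM in WT and 31.2, 24.1 and 27.7 FPKM in KO, and the genotypes overlapped. The change between ages in the genotype difference was 0.78 for Atf1, 0.86 for Mkl1, 0.77 for Elk4 and -0.57 for Prkacb on the log2 scale (limma adjusted p = 1 for each).

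Among relatives of the AP-1 and EGR factors, 11 of 17 were tested and 0 were called. The tested relatives had a median KO minus WT of -0.43 at 3 months, where that of the 10 members was 0.52. Batf, a partner of JUN proteins in lymphocytes, was at 2.49, 4.18 and 2.84 FPKM in WT at 3 months and 4.32, 2.28 and 1.34 FPKM in WT at 6 months. It was at 0, 0.466 and 3.67 FPKM in KO at 3 months and 9.79, 1.21 and 7.63 FPKM in KO at 6 months, the smallest interaction p of the list (1.89 on the log2 scale, limma unadjusted p = 0.0652, adjusted p = 1). Jdp2 (1.52), Mafg (0.93) and Nab2 (0.81) came next by p.

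Of 27 other immediate-early genes 23 were tested, 0 were called, and 12 were above and 11 below 0 in KO minus WT at 3 months, a median of 0.00. At 6 months 17 of the 23 were below 0 (48.5% of all genes), with a median of -0.22. Rhob, a small GTPase gene induced by growth factors, had the smallest interaction p of the list (unadjusted p = 0.00499, limma adjusted p = 1). It was at 10.2, 7.90 and 18.5 FPKM in WT and 18.6, 22.9 and 23.5 FPKM in KO at 3 months, and at 33.6, 36.8 and 25.1 FPKM in WT and 21.97, 19.7 and 10.2 FPKM in KO at 6 months. KO lay above WT at 3 months (5.02% of all genes) and below WT at 6 months (3.01%), without overlap at either age. The nearest libraries at 3 months were almost level, WT library 3 at 18.46 and KO library 1 at 18.62 FPKM. In the WT comparison of ages 6 of the 23 had an unadjusted p under 0.05, 3 in each direction (7.44% of all genes). The interactions of Ier5 (-1.09), Mcl1 (0.86) and Nfkbiz (-1.51) had a limma adjusted p of 1. The 8 tested of 15 feedback phosphatases and mRNA decay factors were all below 0 at 6 months in KO minus WT (48.5% of all genes were; median -0.37), and 0 were called. Dusp1, a phosphatase that inactivates MAP kinases, was at 13.8, 91.8 and 83.2 FPKM in WT and 23.3, 184 and 261 FPKM in KO at 3 months, and the genotypes overlapped. The smallest interaction p-values of the list were those of Zfp36 (-2.08), Dusp1 (-1.73), Spred1 (0.52) and Dusp6 (0.63), each with a limma adjusted p of 1.

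The ovulatory response genes, which follow luteinising hormone and EGF-like signals in cumulus cells, mostly had lower values in KO than in WT at 3 months, where Fos and Jun had higher ones. Of 13 genes 9 were tested, and 7 of them were below 0 in KO minus WT (48.7% of all genes). The median was -1.33 on the log2 scale. A limma unadjusted p under 0.05 was reached by 5 (6.80% of all genes), while 0 were called (smallest limma adjusted p = 0.371). Has2 and Ptger2, among the 5, passed the filter on low values only with WT 3-month libraries counted, the group where both were highest. The list was also chosen with earlier results of these data known, so its shares and those of all genes are not on the same footing. Tnfaip6, whose product links hyaluronan in the cumulus matrix, was at 45.9, 44.9 and 8.36 FPKM in WT and 1.41, 0 and 1.66 FPKM in KO at 3 months. At 6 months Tnfaip6 was at 2.91, 1.91 and 7.24 FPKM in WT and 1.78, 0.42 and 0 FPKM in KO. Like Ier3, it was lower in KO without overlap at both ages (-2.70 averaged over ages, limma adjusted p = 0.318). Has2, the hyaluronan synthase gene, was at 23.1, 2.06 and 2.08 FPKM in WT and listed at 0, 0 and 0.0157 FPKM in KO at 3 months. Cebpb, a factor that takes part in luteinisation, was at 202, 370.0 and 218 FPKM in WT and 153, 151 and 139 FPKM in KO at 3 months, and at 114, 75.3 and 32.1 FPKM in WT and 194, 97.7 and 190.0 FPKM in KO at 6 months. In the WT 3-month libraries 1 and 2, where Fos was lowest, Tnfaip6 was at its highest. The interactions of Cebpb (2.00), Has2 (2.59), Tnfaip6 (2.35) and Ptger2 (1.36) were all above 0 (limma adjusted p = 1).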

How the data were processed

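Transcript levels were measured in 12 cumulus cell libraries by Smart-Seq2, with Nextera XT libraries and 75 bp paired-end reads, per the labels' protocols. The deposited values are FPKM computed by the authors. The submitters' processing notes name the build GRCm38/mm10 and the tools Cufflinks 1.2.1, TopHat2 2.0.10, SAMtools 0.1.18, Bowtie2 2.1.0, FastQC and cutadapt, without roles. The sources used here do not give the annotation. Counts were not used, and the spacing of low values put relative depth at 0.64 to 1.0.

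Genes at 1 FPKM or more in at least 3 libraries (11196) were tested on log2(FPKM + 1) with limma 3.58.1 (R 4.3.3): 4 group means, a shared and trended variance (8 residual and 3.9 prior degrees of freedom), 2-sided tests, Benjamini-Hochberg adjustment and a threshold of 0.05. A fold change on this scale understates that of low genes. The script was tested on simulated data. Exact permutation tests and correlations used Python 3.11.15. Gene positions and exons came from GENCODE M21. Alternatives were other pseudocounts (0.1 and 5), filters and scalings, a replicate block, each library left out in turn, and 3 libraries left out together. The members and the gene lists were chosen with earlier results of these data known. Named genes are the members, up to 4 genes per list by interaction p and the 5 genes most like the members or Fos (predicted and small RNA genes passed over).

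Replicate numbers were checked for pairing. Deviations from group means of same-numbered libraries correlated at 0.158, 0.373 and 0.465 between genotypes at 6 months. Between ages in KO they correlated at 0.114, 0.394 and 0.653. These met a rule of every r above 0.1. The rule was not met at 3 months (0.0946, -0.0185 and 0.205) or between ages in WT (0.0319, 0.0303 and 0.278). Libraries of different number correlated as well: WT library 2 with KO library 1 at 0.475 at 6 months. In KO, 3-month library 2 and 6-month library 1 correlated at 0.514. The values set libraries 3 apart from libraries 1 and 2 and do not show that same-numbered libraries are pairs. The p-values rest on differences between libraries, each a pool of cells from 1 mouse. Differences between mice cannot be told apart there from those of cell sampling, other cells in the pool or library preparation.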

Additional observations from a re-analysis of the deposited data

How the results depend on the processing

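No member was called by limma in any comparison under any alternative: the count was 0 with either pseudocount, no filter or a filter at 5 FPKM, both rescalings, the replicate block, which pairs libraries by number (0 members called in each of 6 comparisons, so that it changed no call), each library left out and the 3 libraries high in other-cell markers left out. The smallest adjusted p of a member over all of these was 0.105 (Fos at 3 months). Of 60 differences (10 genes in 6 comparisons), 17 changed sign under some alternative, but none of the 23 that were at least 1 on the log2 scale or had an unadjusted p under 0.05. The members' median moved from -1.38 to -2.06 for the change between ages, and from -0.47 to -1.01 for age in KO, without KO 3-month library 1 (the cause was not tested). The median averaged over ages, 0.12, ran from -0.14 to 0.35 and turned sign without the 3 libraries (-0.14), WT 3-month library 2, KO 3-month library 3 or KO 6-month library 3. The median ran from 0.385 to 0.99 at 3 months, from -0.87 to -0.39 at 6 months and from 0.45 to 1.01 for age in WT. For Ier3 over both ages, the alternatives chosen after seeing the data gave -2.09 to -1.22 with exact permutation p of 0.005 to 0.035, and -1.88 to -1.22 with 1 library left out. The r of Fos and Jun was 0.827 without the 3 libraries (adjusted p = 0.075) and 0.764 to 0.94 with 1 library left out, lowest without KO 3-month library 2; fewer libraries enter these tests. Values of a few FPKM, as for Egr2 and Fosl2, rest on few reads in pools of 100 cells, and no counting interval can be given without counts. A p that missed the threshold does not show that the groups were alike.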
